A study of Mus musculus with 9 samples.

Results

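The genes of the respiratory chain and the ATP synthase were followed in 9 RNA-Seq libraries of NMuMG cells, an immortalized epithelial line from the mouse mammary gland. Members were taken by gene symbol and not by any measured value: every symbol that starts with mt-, the subunit series Ndufa, Ndufb, Ndufc, Ndufs and Ndufv, symbols that start with Uqcr, with Cox followed by a digit from 4 to 8 or with Atp5, the 4 Sdh subunits, *Cyc1* and *Cycs*. Symbols marked as pseudogenes were left out. That gave 122 of the 52459 symbols measured, 37 of them encoded by mitochondrial DNA (13 mRNAs, 2 rRNAs and 22 tRNAs) and 85 by nuclear chromosomes (35 of complex I, 4 of complex II, 9 of complex III, 19 of complex IV, 17 of complex V and cytochrome c).

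The study asked what the lncRNA EPR (*BC030870*) does in these cells, and whether its effects need the small peptide that one of its open reading frames encodes. Mock cells carried the empty pBICEP-based vector, EPR cells the full lncRNA, and EPRSTOPE cells a point mutant with a stop at the second codon of that frame. All were stable transfectants kept as pools under G418 selection, untreated, with 3 libraries each, and the vector drives its insert from a CMV promoter. The paper's methods describe the 3 libraries of each condition as biological replicates. Neither they nor the labels say whether these came from separate pools or cultures. The p-values therefore measure the spread between these libraries, which may not cover that between separate pools. Levels of EPR RNA were 0, 0 and 0.163 counts per 1000000 (CPM) in the mock, 23.65 to 27.0 CPM in the EPR and 3.80 to 4.74 CPM in the EPRSTOPE libraries. The mutant was therefore also the weaker expresser, and in every comparison of EPR with EPRSTOPE the mutation and the level of the transgene cannot be told apart.

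Oxidative phosphorylation is built from products of both genomes. Complex I (NADH dehydrogenase) and complex II (succinate dehydrogenase) pass electrons to ubiquinone, complex III to cytochrome c and complex IV (cytochrome c oxidase) to oxygen, and complex V, the ATP synthase, makes ATP from the proton gradient. Mitochondrial DNA is transcribed from both strands into long precursors in which tRNAs separate most mRNAs, so its mRNAs share promoters and differ mainly in processing and stability. Complex II is the only complex with no subunit from mitochondrial DNA. Transcription factors of the NRF1, ETS and YY1 families are known for sites in the promoters of nuclear subunit genes.

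Total estimated counts ran from 5972457 to 11876435 per library, at which 3 counts correspond to 0.253 to 0.502 CPM. Of the 122 members, 106 passed the filter of at least 1 CPM in at least 3 libraries and were tested among 15370 genes: all 13 mitochondrial mRNAs, both rRNAs, 13 of 22 tRNAs and 78 of 85 nuclear members. A gene is said to be called, and to have risen or fallen, where edgeR's quasi-likelihood test gave a Benjamini-Hochberg adjusted p under 0.01 over all genes tested and a log2 fold change beyond 0.5. In these bulk samples, fewer cells of a kind and less RNA per cell cannot be told apart, and neither can fewer mitochondria and less RNA per mitochondrion. Levels of cell type markers moved with the groups. The summed level of 10 epithelial markers was 3692 to 4157 CPM in mock, 9492 to 10600 CPM in EPR and 10690 to 11020 CPM in EPRSTOPE libraries. Against mock, 6 of the 6 tested were called higher in EPR and 4 of 6 in EPRSTOPE, beside 15.2% and 15.6% of all genes. Keratins *Krt8* and *Krt18* made up most of the sum. Both are on chromosome 15, where 41.5% of all genes were called higher in EPR and 44.0% in EPRSTOPE. The junction protein *Cdh1* averaged 0.843 CPM in mock cells against 556 CPM with EPR, and *Epcam* was at 0 in mock cells. The untested *Cldn3*, *Cldn4*, *Cldn7* and *Esrp1* averaged at most 0.231 CPM in any group. The 10 mesenchymal markers summed to 4044 to 4212, 2214 to 2445 and 3958 to 4298 CPM. The most abundant of them, *Vim* and *Fn1*, had log2 fold changes against mock of -0.575 and -1.456 in EPR. In EPRSTOPE they gave 0.253 and -0.409, neither called. Of the other mesenchymal markers tested, *Cdh2* (-1.319 in EPR and -1.062 in EPRSTOPE) and *Acta2* (-3.076 and -3.538) were called lower in both transfectants. *Zeb2* was called lower in EPR only (-0.778), and *Zeb1* in neither. Blood and immune markers stayed at 10.6 to 15.7 CPM in sum, nearly all of it *Pecam1*. The part of this shift in the results on the respiratory chain was not tested.

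RNA from the mitochondrial genome was higher in EPR cells. Of the 13 mitochondrial mRNAs, 11 rose in EPR against mock and none fell, with a median log2 fold change of 0.90 over the 13 (1.87-fold), while 15.2% of all tested genes were called higher and 12.9% lower and the median gene moved by -0.01. The 11 are subunits of complexes I, III, IV and V. Because the 13 share long precursors and promoters, they cannot be counted as 13 separate observations. In EPRSTOPE against mock, 1 of the 13 rose, *mt-Co1*, with a median of 0.33, where 15.6% of all genes were called higher and 12.4% lower. EPR against EPRSTOPE called 4 of the 13 higher (*mt-Nd1*, *mt-Nd2*, *mt-Nd4l* and *mt-Atp6*) with a median of 0.66, where 6.86% of all genes were called higher and 6.35% lower. No mitochondrial mRNA was called lower in any comparison by edgeR, limma voom or DESeq2, and none had an unadjusted p under 0.05 in that direction.

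Complex I holds 7 mitochondrially encoded subunits, which form the membrane part of the proton pump. *mt-Nd1* stood at 478, 563 and 583 CPM in the mock, 1093, 1169 and 1645 CPM in the EPR and 718, 622 and 818 CPM in the EPRSTOPE libraries. Every EPR library lay above every library of both other groups, and *mt-Nd1* rose against mock (log2 fold change 1.27 ± 0.15 SE, adjusted p = 1.7e-05) and against EPRSTOPE (log2 fold change 0.86 ± 0.14 SE, adjusted p = 0.00082), whereas EPRSTOPE against mock gave 0.41 (adjusted p = 0.034). *mt-Nd2* had 121, 120.1 and 130.1 CPM in the mock, 201, 187 and 245 CPM in the EPR and 111, 103 and 159 CPM in the EPRSTOPE libraries. Its EPRSTOPE libraries lay on both sides of the mock ones, and the log2 fold change of 0.01 there had an adjusted p of 0.97, while EPR stood above mock by 0.77 (adjusted p = 0.00083) and above EPRSTOPE by 0.76 (adjusted p = 0.0019). *mt-Nd5* had 191, 186 and 209.8 CPM in the mock, 285, 255 and 320.3 CPM in the EPR and 204, 209 and 243 CPM in the EPRSTOPE libraries. The groups EPR and mock did not overlap, and the EPR difference of 0.55 (adjusted p = 0.00035) dropped to 0.49 and was no longer called without EPR library 208.

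*mt-Nd4* and *mt-Nd4l* are read from a single bicistronic mRNA with overlapping frames. *mt-Nd4l* stood at 23.3, 23.4 and 28.5 CPM in the mock, 42.9, 42.8 and 55.4 CPM in the EPR and 28.8, 24.1 and 36.6 CPM in the EPRSTOPE libraries, and *mt-Nd4* at 171, 171 and 202 CPM in the mock, 243, 223 and 289 CPM in the EPR and 166, 199.8 and 231 CPM in the EPRSTOPE libraries. For both, all EPR libraries were above all mock libraries. *mt-Nd4l* rose by 0.90 (adjusted p = 0.00043), whereas *mt-Nd4* gave 0.47 (adjusted p = 0.0076), just under the fold limit, and was not called. *mt-Nd6*, the mRNA encoded on the strand opposite to the others, had 22.7, 28.1 and 23.5 CPM in the mock, 34.6, 36.6 and 60.3 CPM in the EPR and 28.1, 27.6 and 32.2 CPM in the EPRSTOPE libraries and rose in EPR by 0.82 (adjusted p = 0.0031). That call was lost without mock library 203 or 205.

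*mt-Cytb*, the haem-carrying core of complex III, stood at 679.5, 727 and 661 CPM in the mock, 1077, 1156 and 1322 CPM in the EPR and 830.3, 806 and 965 CPM in the EPRSTOPE libraries. The EPR libraries were the highest and the mock libraries the lowest, with no overlap between any pair of groups. It rose against mock (log2 fold change 0.78 ± 0.08 SE, adjusted p = 9.8e-06), and the differences of 0.33 (adjusted p = 0.006) for EPRSTOPE against mock and 0.45 (adjusted p = 0.0016) for EPR against EPRSTOPE were below the fold limit. Complex V has *mt-Atp6*, which forms the proton channel, and *mt-Atp8*, a short membrane subunit. *mt-Atp8* stood at 75.5, 74.3 and 101 CPM in the mock, 140.3, 169 and 314 CPM in the EPR and 115, 87.7 and 132 CPM in the EPRSTOPE libraries. It rose in EPR by 1.31 (adjusted p = 0.0012), with library 208 far above the other EPR libraries, and the log2 fold change was 0.91 without it.

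*mt-Co1*, the catalytic subunit of complex IV, was the only mRNA of the 13 to rise in both transfectants when each symbol was taken on its own. It stood at 3676, 4359 and 4137 CPM in the mock, 6390, 6510 and 8058 CPM in the EPR and 7329, 6787 and 6628 CPM in the EPRSTOPE libraries, so that both transfectants lay above mock without overlap and overlapped each other. The log2 fold changes against mock were 0.78 ± 0.09 SE in EPR and 0.77 ± 0.09 SE in EPRSTOPE (adjusted p = 1.2e-05 and 1.4e-05), and EPR against EPRSTOPE differed by 0.01 ± 0.09 SE (adjusted p = 0.92). Both calls held in all 20 alternative settings run for this gene.

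Several of these RNAs have near-identical copies in nuclear DNA on chromosome 1, which the annotation lists as separate genes, and Kallisto shares reads that fit both between them. *mt-Co2* (chrM, mitochondrial) and *Gm28661* (chr1:24614885-24615565, minus strand) are identical over 681 bases, *Gm29216* differs from *mt-Co1* at 6 of 492 bases, and *Gm28438* from *mt-Nd3* at 1 of 345. The stretches below, in transcript orientation from the transcripts on GRCm38, show how little separates the pairs, and a read that holds none of the differing bases fits both. *Gm29216* covers the last 492 of the 1545 bases of *mt-Co1*, and reads from the rest of *mt-Co1* have no counterpart in it. Capitals mark the bases that differ, and the *mt-Co2* pair has none. The stretches lie at chrM:6381-6441 and chr1:24616137-24616197 for the first pair, chrM:9459-9519 and chr1:24613059-24613119 for the second, and chrM:7323-7383 and chr1:24615195-24615255 for the third.
mt-Co1: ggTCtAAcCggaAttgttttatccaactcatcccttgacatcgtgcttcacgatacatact
Gm29216: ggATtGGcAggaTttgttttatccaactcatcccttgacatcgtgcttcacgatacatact
mt-Nd3: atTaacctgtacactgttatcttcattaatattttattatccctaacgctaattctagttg
Gm28438: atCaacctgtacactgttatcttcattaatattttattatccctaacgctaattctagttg
mt-Co2: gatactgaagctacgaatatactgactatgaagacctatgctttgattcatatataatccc
Gm28661: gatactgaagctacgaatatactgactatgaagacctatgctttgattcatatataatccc
With positions numbered from 1 at the first base of each member's transcript, the differences are T1056A, C1057T, A1059G, A1060G, C1062A and A1066T for *mt-Co1* and T3C for *mt-Nd3*. All differences of a pair lie within the stretch printed.

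The split was uneven. *Gm28661* held 91.6% to 99.3% of the counts of the *mt-Co2* pair, and *mt-Co2* under its own symbol stood at 62.8, 25.96 and 45.9 CPM in the mock, 119, 155 and 20.8 CPM in the EPR and 166, 114 and 22.7 CPM in the EPRSTOPE libraries, a scatter within groups that left 1.14 (adjusted p = 0.21) uncalled. With the copy added, it stood at 1208, 1359 and 1377 CPM in the mock, 2401, 2514 and 3119 CPM in the EPR and 1972, 1714 and 2099 CPM in the EPRSTOPE libraries. The 9 libraries then fell into groups without overlap between mock and either transfectant, and *mt-Co2* rose in EPR (log2 fold change 1.03 ± 0.10 SE, adjusted p = 3.7e-06) and in EPRSTOPE (log2 fold change 0.55 ± 0.10 SE, adjusted p = 0.00057). *mt-Co3* shares reads in the same way with *Gm28437*, which held 67.5% to 88.6% of the pair. Under its own symbol *mt-Co3* gave 221, 362 and 407 CPM in the mock, 616, 720.3 and 1178 CPM in the EPR and 671, 273 and 277 CPM in the EPRSTOPE libraries, with a call in EPR of 1.34 (adjusted p = 0.0078) that 7 of 20 alternatives ended, DESeq2 and the loss of any mock library or of EPR library 207 or 208 among them. With the copy added the values were 1385, 1591 and 1649 CPM in the mock, 2207, 2404 and 3620 CPM in the EPR and 2713, 2126 and 2426 CPM in the EPRSTOPE libraries, with rises of 0.83 (adjusted p = 0.00079) in EPR and 0.65 (adjusted p = 0.0042) in EPRSTOPE.

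*mt-Atp6* has a copy in *Gm10925* and *mt-Nd3* in *Gm28438*. Summed with its copy, *mt-Atp6* stood at 514, 546 and 596 CPM in the mock, 901, 989 and 1548 CPM in the EPR and 779, 600.3 and 889 CPM in the EPRSTOPE libraries, a rise in EPR of 1.05 (adjusted p = 0.00045). Under its own symbol the rise was 1.63 (adjusted p = 0.00066), and the call against EPRSTOPE (1.26 (adjusted p = 0.0069)) was lost once the copy was added (0.60 (adjusted p = 0.026)). *mt-Nd3* with its copy stood at 87.8, 117 and 127 CPM in the mock, 209, 222 and 298 CPM in the EPR and 142, 124 and 139.5 CPM in the EPRSTOPE libraries, rising in EPR by 1.13 (adjusted p = 4.5e-05) against 1.80 (adjusted p = 0.00012) under its own symbol, and then also standing above EPRSTOPE (0.85 (adjusted p = 0.00092)). With all copies added, 12 of the 13 mRNAs were called higher in EPR, all but *mt-Nd4*, with a median of 0.83, against 15.2% of all genes in that fit. In EPRSTOPE the 3 called higher, against 15.6% of all genes, were *mt-Co1*, *mt-Co2* and *mt-Co3*. The 4 called higher in EPR against EPRSTOPE, against 6.88% of all genes, were *mt-Nd1*, *mt-Nd2*, *mt-Nd3* and *mt-Nd4l*. Whether subunits of complex IV and of complex I differ in this was not tested. No copy was found for *mt-Nd1*, *mt-Nd6*, *mt-Cytb* and *mt-Atp8*, the copies of *mt-Nd4* and *mt-Nd4l* and that of *mt-Nd2* were at 0 in every library, and that of *mt-Nd5* had 1 count in 1 library. In these summed values every EPR library lay above every mock library for 13 of the 13 mRNAs, as it did for 28.9% of all genes. The plot of mitochondrial RNAs by library shows the summed values for each library.

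**Figure D1:**
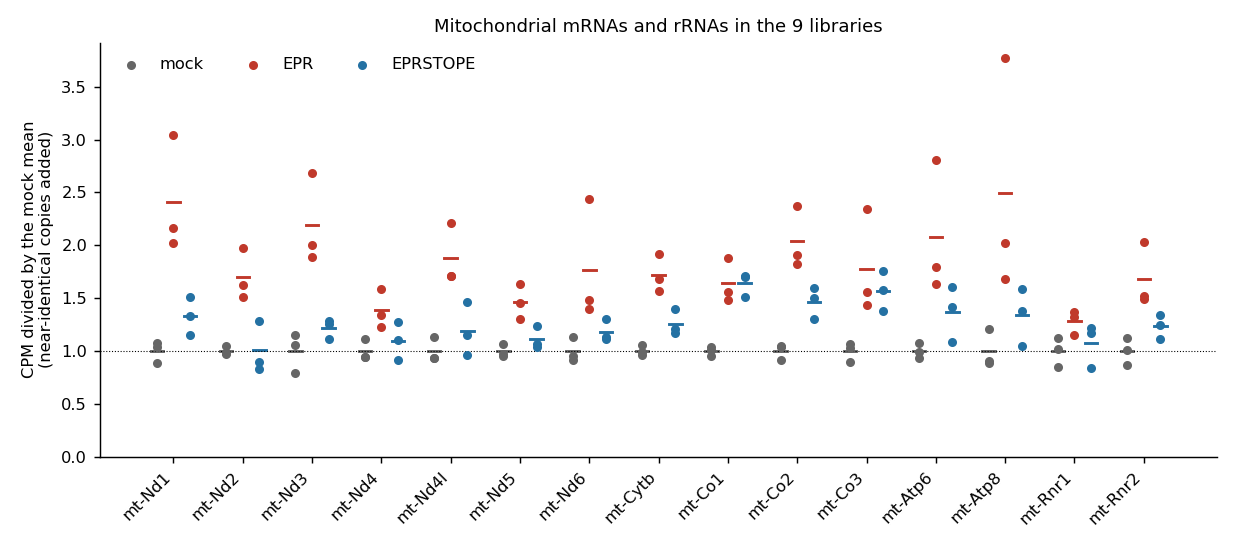
Level of each mitochondrial mRNA (near-identical nuclear copies added) and rRNA in the 9 libraries, as CPM divided by the mock mean of that RNA, on a linear axis from 0. Points are single libraries, coloured by group, and short bars are group means. The EPR libraries lie above the mock libraries for all 13 mRNAs, as they do for 28.9% of all genes. The EPRSTOPE libraries lie among the EPR ones for mt-Co1, and EPR library 208 is the highest EPR library for all 13 mRNAs.

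**Figure D2:**
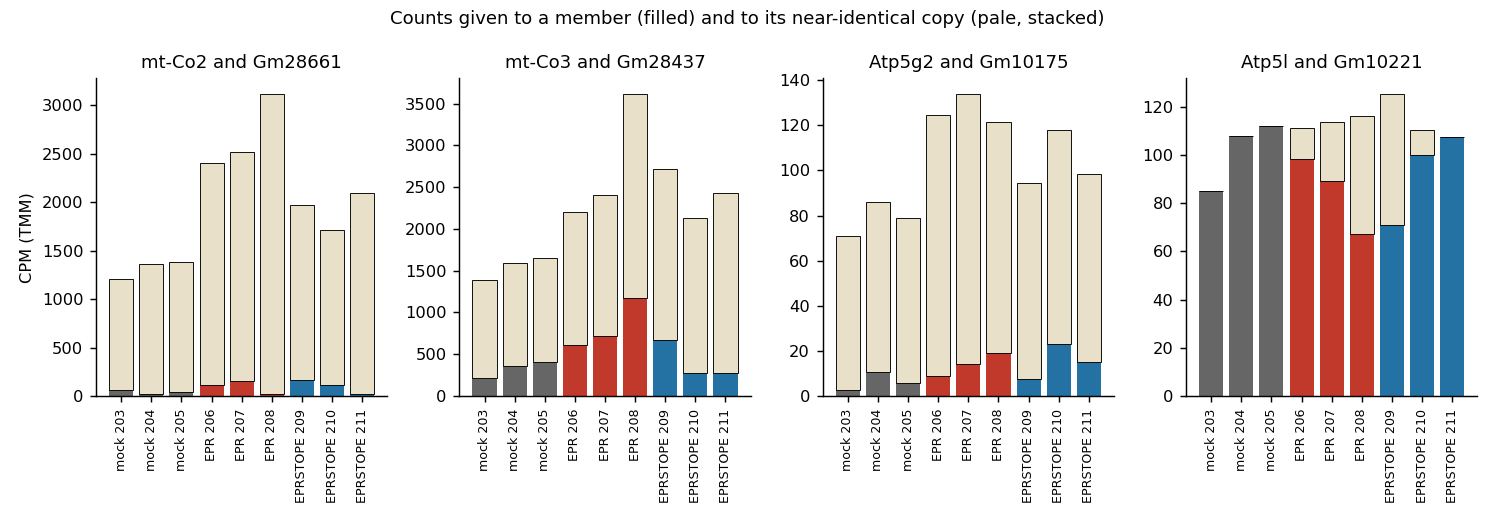
Counts of 4 members and of their near-identical copy in each library, in CPM, stacked, with the member's own symbol below and the copy above. The copy takes most of the mt-Co2, mt-Co3 and Atp5g2 pairs in every library, and the Atp5l copy Gm10221 is at 0 in the 3 mock libraries.

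Compared per length, as transcripts per 1000000 (TPM) with the copies added, the 13 mRNAs spanned from *mt-Co1* at a mean of 6007 over all libraries to *mt-Nd6* at 82.2. *mt-Co2* (3652), *mt-Co3* (3405) and *mt-Atp6* (1513) followed *mt-Co1*, then *mt-Atp8* (1031), *mt-Nd1* (1004), *mt-Cytb* (846) and *mt-Nd3* (610), and the remaining complex I mRNAs lay between 119 and 162 (*mt-Nd2*, *mt-Nd4l*, *mt-Nd4* and *mt-Nd5*). Neighbours in this order were often closer than their spread. In mock cells *mt-Co2* at 2811 ± 177 TPM and *mt-Co3* at 2722 ± 85.3 TPM (SD, n = 3) did not differ beyond it, nor did *mt-Nd1* at 732 ± 89.7 TPM and *mt-Cytb* at 697 ± 86.4 TPM. All 3 complex IV mRNAs stood at the top in every group mean.

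As a share of all estimated counts, mitochondrial mRNAs took 0.634%, 0.704% and 0.703% in the mock, 1.04%, 1.12% and 1.44% in the EPR and 1.04%, 0.913% and 0.938% in the EPRSTOPE libraries, or 0.680 ± 0.040% in mock, 1.20 ± 0.21% in EPR and 0.964 ± 0.068% in EPRSTOPE (SD, n = 3). With the copies added these means were 1.06%, 1.80% and 1.48%. On either count, every EPR and every EPRSTOPE library lay above every mock library. With the copies added, the EPR (1.55% to 2.18%) and EPRSTOPE libraries (1.33% to 1.56%) overlapped. Within the mitochondrial mRNA counts, copies added, *mt-Co1* made up 47.1 ± 1.0% in mock, 43.3 ± 1.8% in EPR and 51.0 ± 1.1% in EPRSTOPE libraries (SD, n = 3). Without *mt-Co1*, the other 12 mRNAs took 0.562% of counts in mock, 1.02% in EPR and 0.724% in EPRSTOPE. The EPRSTOPE libraries (0.636% to 0.784%) still lay above the mock ones (0.534% to 0.589%). The nuclear members summed to 0.773%, 0.714% and 0.731% of counts. These shares are of raw totals. After normalization (TMM) the median log2 fold change of the nuclear members against mock was 0.01 in EPR and 0.11 in EPRSTOPE.

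Other shares moved with the groups too. The nuclear lncRNA *Malat1* took 0.465% of counts in mock, 1.64% in EPR and 1.25% in EPRSTOPE libraries, and transcripts annotated as retained introns 6.09%, 4.96% and 4.54%. EPR library 208 was the highest EPR library for 24 of the 28 mitochondrial members tested. Without it 14 members were called higher in EPR in place of 16, with *mt-Co3* (1.04) and *mt-Nd5* (0.49) lost among the 13 mRNAs. The part of these shifts in the mitochondrial result was not tested.

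Of the 2 mitochondrial rRNAs, *mt-Rnr2*, of the large ribosomal subunit, stood at 4180, 4895 and 5421 CPM in the mock, 7367, 7223 and 9828 CPM in the EPR and 5377, 6032 and 6454 CPM in the EPRSTOPE libraries. It rose in EPR (log2 fold change 0.75 ± 0.12 SE, adjusted p = 0.00025), and the EPRSTOPE difference was 0.30 (adjusted p = 0.057). *mt-Rnr1*, of the small subunit, had 751, 899 and 994 CPM in the mock, 1168, 1012 and 1209 CPM in the EPR and 737, 1069 and 1033 CPM in the EPRSTOPE libraries, and its EPR difference of 0.36 (adjusted p = 0.044) was not called. Libraries were made from total RNA by a protocol with rRNA depletion, and how evenly that step removes mitochondrial rRNA from library to library was not tested.

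Of the 13 mitochondrial tRNAs tested, all had a positive log2 fold change in EPR against mock and 2 were called higher (15.4%, against 15.2% of all genes), named here after their values were seen. *mt-Tp* (tRNA for proline) stood at 2.48, 2.53 and 3.01 CPM in the mock, 6.63, 7.07 and 9.06 CPM in the EPR and 5.76, 6.3 and 6.67 CPM in the EPRSTOPE libraries and rose in EPR by 1.49 (adjusted p = 9.6e-05) and in EPRSTOPE by 1.21 (adjusted p = 0.00059). *mt-Ts1* (a tRNA for serine) had 126, 135 and 133 CPM in the mock, 191, 192 and 251 CPM in the EPR and 226, 212 and 227 CPM in the EPRSTOPE libraries, with rises of 0.69 and 0.75. It lies at chrM:6870-6938 on the minus strand and overlaps the last 3 bases of *mt-Co1* (chrM:5328-6872, plus strand). *mt-Tg* (glycine), the only tRNA called in EPR against EPRSTOPE (2.49 (adjusted p = 0.0072)), had 1 to 33 counts a library and at most 3.08 CPM. Mature tRNAs are hardly longer than a read and are poorly caught by such libraries, and which RNA gave these counts was not tested.

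Few of the nuclear subunits were called. Among the 78 tested, 2 rose (*Cox6c* and *Ndufv3*) and 3 fell (*Sdhb*, *Cycs* and *Ndufa5*) in EPR against mock, or 2.56% and 3.85% against 15.2% and 12.9% of all genes, with a median log2 fold change of 0.01. In EPRSTOPE 3 rose (*Ndufb9*, *Ndufa6* and *Ndufs3*) and 5 fell (*Ndufs8*, *Cox8a*, *Ndufv1*, *Sdhb* and *Ndufb8*), or 3.85% and 6.41% against 15.6% and 12.4% of all genes, with a median of 0.11. EPR against EPRSTOPE called *Cox8a* higher and *Ndufa5* lower, 1.28% each against 6.86% and 6.35% of all genes, with a median of -0.12. At an unadjusted p under 0.05 with no fold limit, 14 were higher and 19 lower in EPR, and 28 higher and 10 lower in EPRSTOPE. The share of all genes at this threshold is not given here. These counts, and the later ones at the same threshold, therefore cannot be set against it. By complex, the medians in EPR against mock ran from -0.05 for complex V to 0.04 for complex IV, and in EPRSTOPE against mock from 0.02 for complex V to 0.17 for complexes III and IV.

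**Figure D3:**
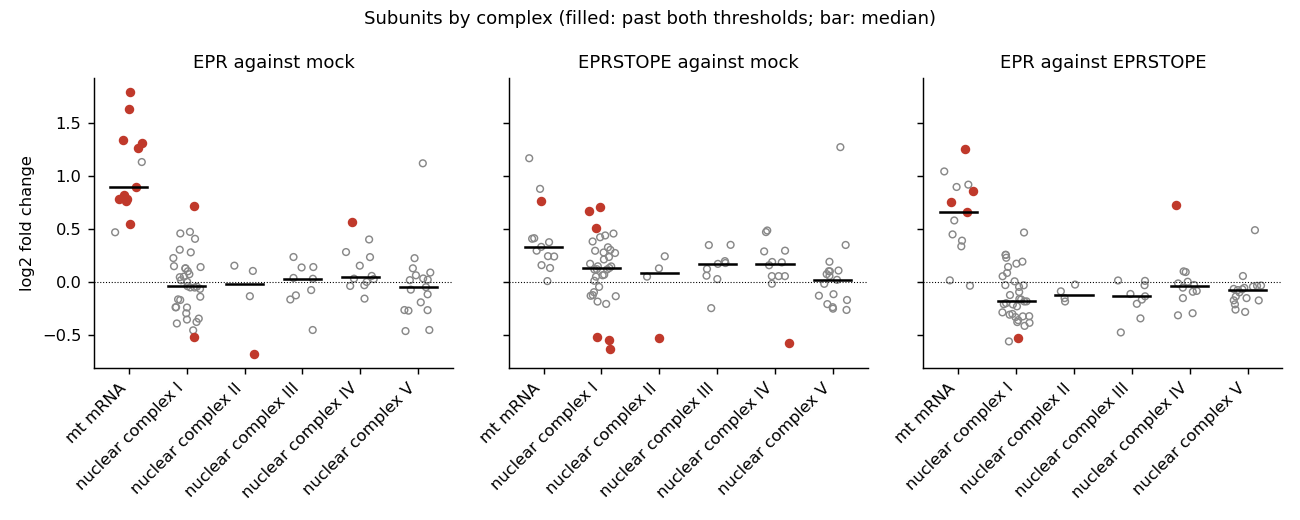
Log2 fold change of each tested member, for the mitochondrial mRNAs and for each nuclear complex (rRNAs, tRNAs and cytochrome c not drawn), in the 3 comparisons. Filled points are called, open points are not, and the short bar is the median of the group. The mitochondrial mRNAs have a median of 0.90 in EPR against mock, and the nuclear complexes lie around 0.

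Complex II, which feeds electrons from succinate into the chain and is wholly nuclear, had the only nuclear member called in both transfectants. *Sdhb*, its iron-sulphur subunit (chr4:140961203-140979193, plus strand), stood at 87.6, 107 and 106 CPM in the mock, 64.7, 64.2 and 58.6 CPM in the EPR and 72.8, 70.2 and 65.6 CPM in the EPRSTOPE libraries. Every transfectant library lay below every mock library, the lowest being the EPR ones. It fell in EPR (log2 fold change -0.69 ± 0.08 SE, adjusted p = 2.7e-05) in all 21 alternative settings, and in EPRSTOPE (log2 fold change -0.53 ± 0.08 SE, adjusted p = 0.00022), a call near the fold limit that was lost without mock library 204 (-0.48) or 205 (-0.49) or EPRSTOPE library 211 (-0.49). Its partners had no call. *Sdha*, the flavoprotein that binds succinate, gave 0.15 (adjusted p = 0.081) in EPR and 0.24 (adjusted p = 0.011) in EPRSTOPE, *Sdhc*, a membrane anchor, -0.14 and 0.05, and *Sdhd*, the other anchor, 0.10 and 0.13. *Sdhb* was the least abundant of the 4 per length (74.0 TPM over all libraries) and *Sdhc* the most (97.5 TPM).

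In complex I, 1 of 35 nuclear subunits rose and 1 fell in EPR. *Ndufv3*, a small accessory subunit of the NADH-binding module (chr17:31520115-31531331), stood at 18.8, 21.9 and 22.8 CPM in the mock, 40.4, 28.8 and 35.3 CPM in the EPR and 28.6, 30.2 and 28.9 CPM in the EPRSTOPE libraries. All transfectant libraries were above all mock libraries, with 0.71 (adjusted p = 0.00043) in EPR and 0.46 (adjusted p = 0.0097) in EPRSTOPE, the latter under the fold limit. *Ndufa5*, an accessory subunit of the matrix arm (chr6:24518666-24528013), had 24.5, 23.7 and 23.03 CPM in the mock, 18.1, 14.9 and 16.4 CPM in the EPR and 20.3, 27.3 and 23.7 CPM in the EPRSTOPE libraries. It was lower in EPR than in both other groups (-0.52 (adjusted p = 0.0034) against mock and -0.53 (adjusted p = 0.0058) against EPRSTOPE), but 7 and 8 of 21 alternatives ended these calls, and in transcripts annotated as coding the change against mock was -0.13. EPRSTOPE raised *Ndufb9* (0.70 (adjusted p = 0.00073)), *Ndufa6* (0.67 (adjusted p = 0.0034)) and *Ndufs3* (0.51 (adjusted p = 0.00068)). *Ndufs3*, a core subunit of the matrix arm, stood at 39.1, 47.8 and 48.8 CPM in the mock, 53.9, 52.03 and 45.3 CPM in the EPR and 65.7, 65.03 and 63.5 CPM in the EPRSTOPE libraries, and its call just past the fold limit was ended by 8 of 21 alternatives, limma voom among them. The least abundant tested nuclear complex I subunit per length, *Ndufa11* (8.36 TPM), gave 0.13 in EPR and 0.12 in EPRSTOPE.

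Complex III had no call among its 9 nuclear members in any comparison, by edgeR, limma voom or DESeq2. At an unadjusted p under 0.05, 2 were higher and 2 lower in EPR, and 5 higher and 1 lower in EPRSTOPE. *Uqcrh*, the hinge protein and the most abundant per length (240 TPM), gave 0.14 in EPR and 0.12 in EPRSTOPE, and *Uqcrfs1*, the Rieske iron-sulphur protein and the least abundant (64.1 TPM), 0.14 and 0.17. *Cycs*, the soluble cytochrome c that carries electrons from complex III to IV (chr6:50562563-50566538, minus strand), stood at 53.1, 47.9 and 38.3 CPM in the mock, 26.7, 29.2 and 30.2 CPM in the EPR and 36.8, 27.98 and 36.4 CPM in the EPRSTOPE libraries and fell in EPR (log2 fold change -0.69 ± 0.13 SE, adjusted p = 0.001). Most reads of its sequence were placed on copies, *Gm10053* and *Gm10108* above all. With these added it stood at 172, 192 and 188 CPM in the mock, 128, 137 and 138 CPM in the EPR and 154, 137 and 145 CPM in the EPRSTOPE libraries. The transfectant libraries remained below the mock ones, and the change of -0.46 (adjusted p = 9.6e-05) in EPR then missed the fold limit.

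Complex IV had 1 nuclear member called higher in EPR, *Cox6c*, a small membrane subunit (chr15:35925886-35938246, minus strand). It stood at 90.4, 105 and 100.5 CPM in the mock, 152, 154 and 135 CPM in the EPR and 142, 146 and 123 CPM in the EPRSTOPE libraries, both transfectants above mock without overlap, with 0.57 (adjusted p = 0.00013) in EPR and 0.47 (adjusted p = 0.00059) in EPRSTOPE. *Cox8a*, the ubiquitous form of the smallest subunit and the most abundant nuclear subunit of complex IV per length (415 TPM), stood at 162, 207 and 178 CPM in the mock, 203, 209 and 198 CPM in the EPR and 128, 125 and 114 CPM in the EPRSTOPE libraries. The EPRSTOPE libraries were the lowest, below all others, and EPR and mock overlapped. It fell in EPRSTOPE (log2 fold change -0.58 ± 0.08 SE, adjusted p = 0.00012), gave 0.15 (adjusted p = 0.15) in EPR, and was higher in EPR than in EPRSTOPE (log2 fold change 0.73 ± 0.08 SE, adjusted p = 4.4e-05), a call that all 21 alternatives kept. The least abundant of the tested complex IV subunits, *Cox7a2l* (99.3 TPM), a protein of respiratory supercomplexes, gave 0.40 (adjusted p = 0.00092) in EPR and 0.49 (adjusted p = 0.00023) in EPRSTOPE, both under the fold limit.

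Several complex IV subunits and the c subunit of complex V exist as isoforms from separate genes. The ubiquitous forms *Cox4i1*, *Cox6a1*, *Cox6b1*, *Cox7a2*, *Cox7b* and *Cox8a* were all expressed, with group means between 90.5 and 225 CPM. The 7 members known from heart and muscle, lung, testis or other tissues (*Cox4i2*, *Cox6a2*, *Cox6b2*, *Cox7a1*, *Cox7b2*, *Cox8b* and *Cox8c*) did not pass the filter and had at most 0.678 CPM in any library. They were at or near the 3-count level, and a difference between groups was not detectable at this depth. *Cox4i1* stood at 172, 200.1 and 182 CPM in the mock, 222, 238 and 215 CPM in the EPR and 229.9, 214 and 188 CPM in the EPRSTOPE libraries and gave 0.28 (adjusted p = 0.013) in EPR.

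Complex V, taken here as every nuclear member whose symbol starts with Atp5, had no call among 17 in any comparison by edgeR, limma voom or DESeq2. Whether each of the 17 is a structural subunit was not checked. At an unadjusted p under 0.05, 1 was higher and 6 lower in EPR and 3 were higher and 3 lower in EPRSTOPE. *Atp5b*, the catalytic beta subunit and the most abundant nuclear member per length (963 TPM), stood at 1251, 1319 and 1237 CPM in the mock, 1170, 1112 and 1048 CPM in the EPR and 1178, 1177 and 1157 CPM in the EPRSTOPE libraries, a difference of -0.19 (adjusted p = 0.0064) in EPR, and *Atp5s*, the least abundant (2.81 TPM), gave 0.23. The c subunit that forms the rotor ring is encoded by 3 genes. *Atp5g1* gave -0.46 (adjusted p = 0.0066) in EPR, and *Atp5g3* gave -0.07. *Atp5g2* (chromosome 15) shares its sequence with *Gm10175* on chromosome 7, which took 80.4% to 96.3% of the counts of the pair. With its copies added, *Atp5g2* stood at 70.99, 86.1 and 78.7 CPM in the mock, 125, 134 and 125 CPM in the EPR and 94.5, 118 and 103 CPM in the EPRSTOPE libraries and rose in EPR (log2 fold change 0.70 ± 0.09 SE, adjusted p = 3.7e-05), with 0.42 (adjusted p = 0.002) in EPRSTOPE.

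*Atp5l*, subunit g of the membrane part, showed how far the sharing of reads can vary between libraries. It is identical over 309 bases to *Gm10221*, a processed pseudogene on chromosome 5, as in the stretch below (chr5:24581678-24581738, minus strand, for the copy).
Atp5l: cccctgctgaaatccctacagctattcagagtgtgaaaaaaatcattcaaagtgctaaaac
Gm10221: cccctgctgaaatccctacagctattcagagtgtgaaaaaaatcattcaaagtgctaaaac
*Gm10221* was at 0 in all mock libraries, at 13.1, 24.8 and 48.97 CPM in EPR and at 54.5, 10.6 and 0 CPM in EPRSTOPE libraries. *Atp5l* itself stood at 85.3, 108 and 112 CPM in the mock, 98.3, 89.2 and 67.1 CPM in the EPR and 70.98, 99.95 and 108 CPM in the EPRSTOPE libraries. The copy's share of the pair thus ran from 0% to 43.4%, also among libraries of 1 group. The pair's sum differed by 0.16 in EPR and 0.17 in EPRSTOPE, neither called, whereas *Atp5l* alone gave -0.27 and -0.13.

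**Figure D4:**
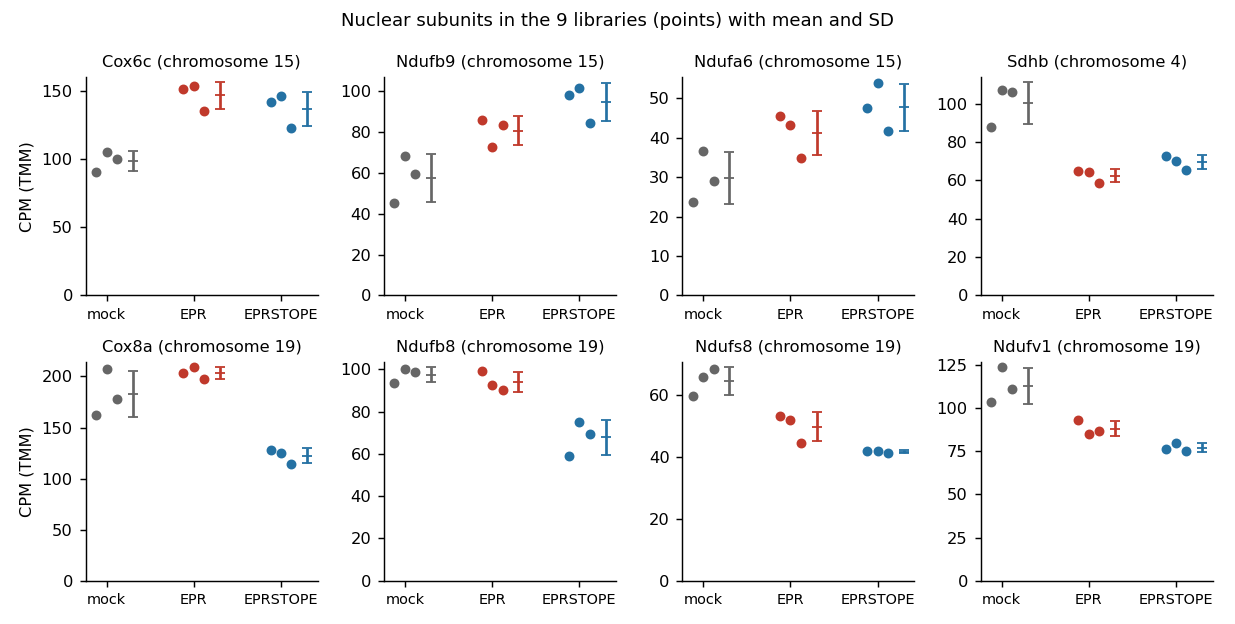
CPM of 8 nuclear members in the 9 libraries, with the mean (bar) and SD (error bar) of the 3 libraries of each group. Sdhb lies lower in both transfectants, Cox6c, Ndufb9 and Ndufa6 higher, and Cox8a, Ndufb8, Ndufs8 and Ndufv1 lowest in EPRSTOPE.

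Most nuclear calls in EPRSTOPE lay on 2 chromosomes whose genes moved together. Of the 8 called there, 2 of the 3 that rose (*Ndufb9* and *Ndufa6*) are on chromosome 15, and 4 of the 5 that fell (*Cox8a*, *Ndufb8*, *Ndufs8* and *Ndufv1*) on chromosome 19. On chromosome 19, the median of all 477 tested genes was -0.55 in EPRSTOPE against mock (43.2% called lower), -0.02 in EPR against mock and 0.55 in EPR against EPRSTOPE (43.4% called higher). The median of the 4 members was -0.56, -0.21 and 0.36 in the same comparisons. On chromosome 15, the median of all 525 genes was 0.49 in EPR (41.5% called higher) and 0.52 in EPRSTOPE (44.0% called higher), and that of the 5 members 0.47 and 0.67. What moved these chromosomes was not tested. Off both chromosomes, 69 nuclear members were tested, of which 1 was called higher and 3 lower in EPR, and 1 higher and 1 lower in EPRSTOPE. For all genes off both chromosomes the share is not given here, so these counts cannot be set against it.

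Of the members on chromosome 19, *Ndufs8*, an iron-sulphur core subunit of complex I (chr19:3908863-3912774), stood at 59.5, 65.6 and 68.3 CPM in the mock, 53.1, 51.8 and 44.3 CPM in the EPR and 41.7, 41.97 and 41.2 CPM in the EPRSTOPE libraries. Its libraries were lower in both transfectants than in mock, with -0.64 (adjusted p = 5.4e-05) in EPRSTOPE, called in all 21 alternatives, and -0.38 (adjusted p = 0.0023) in EPR, under the fold limit. *Ndufv1*, which binds NADH (chr19:4007384-4012806), had 104, 124 and 111 CPM in the mock, 92.9, 85.1 and 86.6 CPM in the EPR and 76.4, 79.98 and 75.2 CPM in the EPRSTOPE libraries, with -0.55 (adjusted p = 5.7e-05) in EPRSTOPE and -0.36 (adjusted p = 0.0014) in EPR. *Ndufb8*, an accessory subunit of the membrane arm (chr19:44548572-44555440), had 93.4, 100.2 and 98.8 CPM in the mock, 99.3, 92.6 and 90.1 CPM in the EPR and 58.96, 74.96 and 69.4 CPM in the EPRSTOPE libraries. Its EPR and mock libraries overlapped (-0.05 (adjusted p = 0.63)), and EPRSTOPE was below both (-0.52 (adjusted p = 0.00025) against mock). The calls of *Cox8a* (-0.48) and *Ndufv1* (-0.47) in EPRSTOPE were lost without mock library 204, and that of *Ndufb8* (-0.43) without EPRSTOPE library 209. In transcripts annotated as coding, the *Ndufv1* change was -0.355 and no longer called. With counts scaled from TPM, that of *Ndufb8* was -0.464 and not called either.

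Of the 5 members on chromosome 15, *Ndufb9*, an accessory subunit of the membrane arm (chr15:58933756-58939488), stood at 45.2, 68.5 and 59.6 CPM in the mock, 85.8, 72.5 and 83.4 CPM in the EPR and 98.1, 102 and 84.2 CPM in the EPRSTOPE libraries. Both transfectants lay above mock without overlap, and EPRSTOPE reached the fold limit while EPR gave 0.47 (adjusted p = 0.0094). *Ndufa6*, an accessory subunit (chr15:82350140-82354322), had 23.6, 36.6 and 29.1 CPM in the mock, 45.4, 43.2 and 34.95 CPM in the EPR and 47.4, 53.8 and 41.8 CPM in the EPRSTOPE libraries, with 0.46 (adjusted p = 0.028) in EPR. Its call in EPRSTOPE was ended by 4 of 21 alternatives, the loss of mock library 203 (0.54) or 205 (0.65) and of EPRSTOPE library 210 (0.57) among them. *Cyc1*, cytochrome c1 of complex III, had 88.2, 86.1 and 88.7 CPM in the mock, 104, 106 and 99.3 CPM in the EPR and 94.9, 122 and 118 CPM in the EPRSTOPE libraries, with 0.24 (adjusted p = 0.036) in EPR and 0.35 (adjusted p = 0.0045) in EPRSTOPE, and *Cox6c* and *Atp5g2* are described above. All 5 had a positive log2 fold change in both transfectants, as the chromosome's median had.

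**Figure D5:**
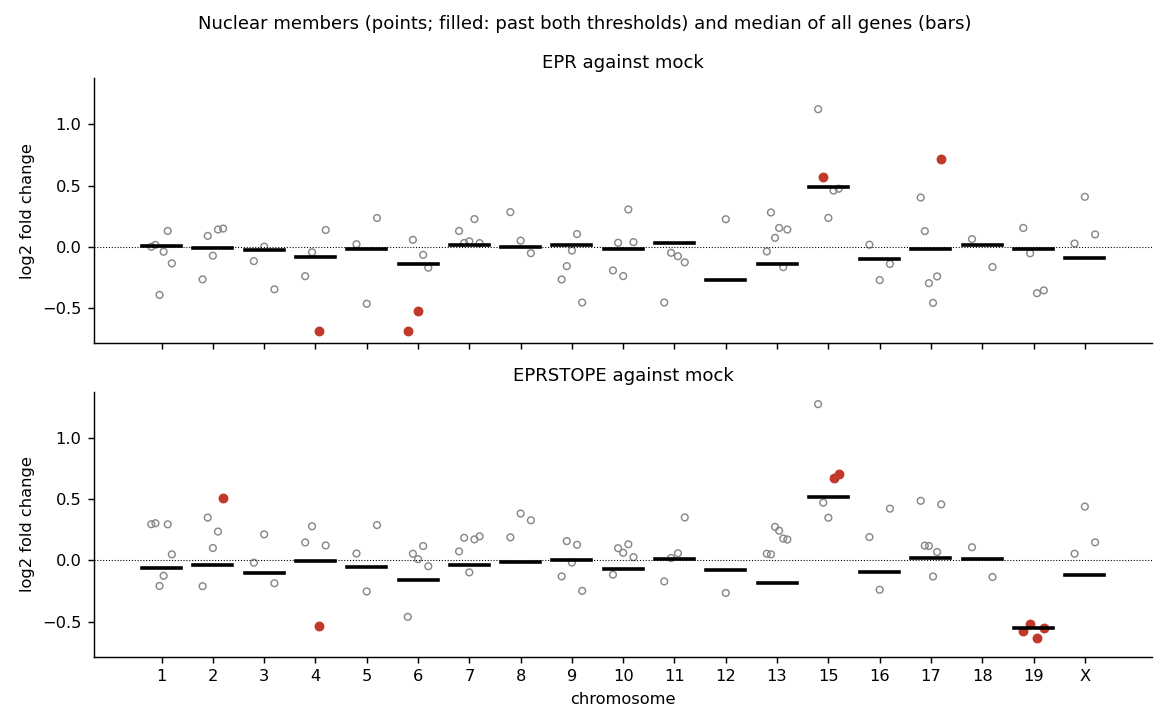
Log2 fold change of nuclear members (points) by chromosome, beside the median of all tested genes of that chromosome (bars), for EPR against mock and EPRSTOPE against mock. The bars lie farthest from 0 on chromosome 15 in both comparisons (0.49 and 0.52) and on chromosome 19 in EPRSTOPE (-0.55).

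Promoter sequences, from 250 bases before to 50 bases after the annotated start, were taken from RefSeq on GRCm38.p6, and 67 of the 85 nuclear members had 72 such windows. Searched on both strands, the NRF1 motif GCGCATGC (or GCATGCGC) was in 11 of the 72 (15.3%), against 2.71% of all 32851 promoters. The YY1 motif AAGATGGC (or GCCATCTT) was in 9 (12.5%, against 2.75%), and the ETS motif CCGGAAGT (or ACTTCCGG) in 5 (6.94%, against 3.89%). None of the motifs contains another. Windows are shown for 3 members that fell, picked because they held a motif, with the matched letters in capitals: *Sdhb* (chr4:140961021-140961320, plus strand, NRF1), *Cox8a* (chr19:7217567-7217866, minus strand, ETS at 2 places) and *Ndufb8* (chr19:44555393-44555692, minus strand, YY1).
Sdhb: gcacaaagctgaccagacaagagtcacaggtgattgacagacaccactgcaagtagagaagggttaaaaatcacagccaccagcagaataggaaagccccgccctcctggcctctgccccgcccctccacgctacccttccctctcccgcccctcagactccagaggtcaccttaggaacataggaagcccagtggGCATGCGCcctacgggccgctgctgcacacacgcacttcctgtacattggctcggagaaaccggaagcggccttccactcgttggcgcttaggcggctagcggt
Cox8a: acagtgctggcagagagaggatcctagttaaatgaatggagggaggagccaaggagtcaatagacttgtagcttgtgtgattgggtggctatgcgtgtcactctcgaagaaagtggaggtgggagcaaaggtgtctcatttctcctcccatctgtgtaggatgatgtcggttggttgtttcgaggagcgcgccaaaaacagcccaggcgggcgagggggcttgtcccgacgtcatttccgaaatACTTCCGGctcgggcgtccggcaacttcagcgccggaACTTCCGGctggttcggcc
Ndufb8: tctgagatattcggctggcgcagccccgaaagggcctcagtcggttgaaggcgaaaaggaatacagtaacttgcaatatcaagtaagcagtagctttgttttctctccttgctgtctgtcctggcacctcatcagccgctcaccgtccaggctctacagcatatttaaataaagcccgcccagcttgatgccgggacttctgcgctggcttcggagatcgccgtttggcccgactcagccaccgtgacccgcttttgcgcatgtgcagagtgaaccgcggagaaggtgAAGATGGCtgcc
Of the other members that fell, *Cycs* also held the NRF1 motif, and *Ndufs8*, *Ndufv1* and *Ndufa5* held none of the 3 in their windows. Members that rose held motifs too, NRF1 in *Ndufa6* and ETS in *Ndufs3*, while *Ndufv3* held none. *Atp5g2*, which rose in EPR with its copies added, held NRF1. Whether the motifs go with a direction of change was not tested. A match is a description of letters, and binding was not measured.

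Genes that make, assemble or feed the chain were followed in 6 further lists, 120 genes tested of 124, of which 13 rose and 13 fell in EPR and 14 rose and 8 fell in EPRSTOPE, a median of -0.05 and 0.02. These are 10.8% higher and 10.8% lower in EPR, where all genes had 15.2% and 12.9%, and 11.7% and 6.67% in EPRSTOPE, where all genes had 15.6% and 12.4%. EPR against EPRSTOPE called 3 higher and 3 lower, or 2.5% each against 6.86% and 6.35%. Levels are group means in mock, EPR and EPRSTOPE cells in that order.

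Among 15 genes of mitochondrial DNA transcription and replication, 1 rose and 2 fell (6.67% and 13.3%), the same in both transfectants, and the median was -0.19 in EPR and -0.13 in EPRSTOPE. *Top1mt*, the mitochondrial topoisomerase, had 4.09, 13.6 and 16.1 CPM and rose by 1.69 (adjusted p = 9.9e-06) and 1.94 (adjusted p = 3e-06). It is on chromosome 15. The exonuclease *Mgme1* (18.5, 10.5 and 9.57 CPM) fell, at a log2 change of -0.82 (adjusted p = 0.0054) in EPR and -0.94 (adjusted p = 0.0026) in EPRSTOPE. *Twnk*, the replicative helicase (57.5, 40.5 and 31.8 CPM), on chromosome 19, fell, at a log2 change of -0.51 and -0.86.

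Of 18 genes of mitochondrial RNA processing and stability, none rose and 1 fell in EPR, and 1 rose and 1 fell in EPRSTOPE (5.56% for each 1). At an unadjusted p under 0.05, 2 were higher in EPR, and limma voom called 0 and DESeq2 0 of them higher. *Slirp*, the partner of *Lrpprc* in stabilizing mitochondrial mRNAs, had 32.9, 20.3 and 27.8 CPM and fell in EPR, at a log2 change of -0.71 (adjusted p = 0.00089). It is on chromosome 12, where 24.2% of all genes were called lower in EPR against mock. *Hsd17b10*, a subunit of mitochondrial RNase P, rose in EPRSTOPE by 0.59 (adjusted p = 0.00031), and *Fastkd5*, a factor in the maturation of mitochondrial mRNAs that lack flanking tRNAs, fell there, at a log2 change of -0.58 (adjusted p = 0.00049).

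Of 44 assembly factors tested, 6 rose and 3 fell in EPR (13.6% and 6.82%), and 6 rose and none fell in EPRSTOPE. The share that rose, 13.6% in each, is near the 15.2% and 15.6% of all genes. At an unadjusted p under 0.05, 6 were lower in EPRSTOPE, and limma voom called 0 and DESeq2 0 of them lower. *Atpaf1*, which assembles the catalytic head of complex V, had 6.12, 12.98 and 11.3 CPM and rose by 1.10 (adjusted p = 0.00037) and 0.90 (adjusted p = 0.0019). *Sco2*, a copper chaperone of complex IV on chromosome 15 (9.69, 21.8 and 18.4 CPM), rose in EPR by 1.16 (adjusted p = 0.0032) and gave 0.92 (adjusted p = 0.014) in EPRSTOPE. *Coa3*, which helps the translation and assembly of the *mt-Co1* product, had 24.1, 38.1 and 20.2 CPM, rose in EPR by 0.65 (adjusted p = 0.0016) and was higher there than in EPRSTOPE by 0.92 (adjusted p = 0.00035). *Cox16*, another complex IV factor, had 10.6, 12.4 and 23.1 CPM and rose in EPRSTOPE by 1.13 (adjusted p = 9.9e-05), with EPR lower than EPRSTOPE by -0.88 (adjusted p = 0.0012). It is on chromosome 12, where 15.7% of all genes were called lower in EPR than in EPRSTOPE.

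Of 11 nuclear regulators tested, 2 rose and 5 fell in EPR (18.2% and 45.5%, against 15.2% and 12.9% of all genes), and 1 rose and 3 fell in EPRSTOPE (9.09% and 27.3%, against 15.6% and 12.4%), with medians of -0.47 and -0.38. *Ppargc1a*, the coactivator known for driving mitochondrial biogenesis, had 3.598, 0.473 and 0.291 CPM and fell, at a log2 change of -2.83 (adjusted p = 0.00099) in EPR and -3.55 (adjusted p = 0.00047) in EPRSTOPE, from a low level to one near the 3-count limit. *Gabpb2*, a partner of the ETS factor GABP, had 132, 78.7 and 69.7 CPM and fell, at a log2 change of -0.74 and -0.91. *Pprc1*, a coactivator of the same family as *Ppargc1a*, on chromosome 19, had 112, 76.01 and 60.2 CPM and fell, at a log2 change of -0.56 and -0.89. *Hif1a*, the oxygen-regulated factor, had 122, 217 and 206 CPM and rose by 0.83 and 0.75.

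Among 16 tested partners and subunits that the symbol rule leaves out, 2 rose and 1 fell in EPR (12.5% and 6.25%), and 3 rose and 2 fell in EPRSTOPE (18.8% and 12.5%). *Gpd2*, the mitochondrial glycerol phosphate dehydrogenase that reduces ubiquinone, had 101, 144 and 199 CPM and rose by 0.51 (adjusted p = 2.2e-05) and 0.98 (adjusted p = 7.7e-08). *Cyb5r3*, an NADH-cytochrome b5 reductase on chromosome 15, had 87.2, 203 and 255 CPM and rose by 1.22 and 1.54. *Coq2*, of ubiquinone synthesis, had 14.5, 19.3 and 22.7 CPM and rose in EPRSTOPE by 0.65 (adjusted p = 0.00033). *Nnt*, the nicotinamide nucleotide transhydrogenase, had 23.2, 15.1 and 32.7 CPM and was called lower in EPR than in EPRSTOPE by -1.11 (adjusted p = 0.0052).

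Of the 16 genes of the tricarboxylic acid cycle and its entry, 2 rose and 1 fell in EPR (12.5% and 6.25%), and 2 rose and none fell in EPRSTOPE (12.5% higher). At an unadjusted p under 0.05, 3 were lower in EPRSTOPE, and limma voom called 0 and DESeq2 0 of them lower. *Sucla2*, of succinyl-CoA ligase, had 31.2, 63.6 and 66.2 CPM and rose by 1.01 (adjusted p = 3.4e-06) and 1.07 (adjusted p = 2.1e-06). *Idh3a*, the catalytic subunit of the NAD-dependent isocitrate dehydrogenase, had 118, 81.01 and 88.5 CPM and fell in EPR, at a log2 change of -0.55 (adjusted p = 7.2e-05). Over the 6 lists, 108 of the genes tested lie off chromosomes 15 and 19, and of these 6 rose and 11 fell in EPR and 10 rose and 5 fell in EPRSTOPE. The share of all genes off both chromosomes is not given here, so these counts cannot be set against it.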

How the data were processed

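RNA-Seq was analysed from 9 libraries, grouped by the genotype label, with the library numbers in the titles as replicate names. The authors demultiplexed reads with bcl2fastq 2.0 and quantified them with Kallisto 0.43.1 on Gencode vM15 transcripts of GRCm38.p5. The submitters' notes also list hg38, whose role is not given in the sources used here. The authors deposited an estimated count for each transcript, not normalized, and a TPM value, which they had scaled by effective length. Whether Kallisto used strand is not given in the sources used here. The labels name paired-end NextSeq reads and the methods a HiSeq instrument.

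Estimated counts were summed per symbol and rounded. Genes reaching 1 CPM in 3 or more libraries entered edgeR 4.0.16 (R 4.3.3, glmQLFit and glmQLFTest), with TMM factors, library sizes over the tested genes, 1 factor of 3 levels over all 9 libraries, and Benjamini-Hochberg adjustment over 15370 genes. The filter and the cut-offs (adjusted p under 0.01, log2 fold change beyond 0.5) are those of the study's methods. CPM values are TMM-normalized. Standard errors come from the F statistic. Intervals and limits of counts cover counting error only. The common biological coefficient of variation was 0.132.

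Members, lists and tests were chosen with earlier results of these data known. Named are the mitochondrial mRNAs and rRNAs, every nuclear member called in a comparison, tissue isoforms, the most and least abundant tested nuclear member of each complex, and up to 4 called genes by log2 fold change in each further list. Some genes that this rule names are not reported here. Copies were found with blastn 2.17.0 (at least 95% identity over at least 100 bases and 50% of the copy). Positions came from Gencode M21 on GRCm38.

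Alternatives were limma 3.58.1 with voom, DESeq2 1.42.0, other normalizations, filters, thresholds and fits, counts scaled from TPM, coding transcripts, and each library left out. Adding near-identical copies and taking library sizes over all genes were chosen after seeing the data. On simulated counts for EPR against mock (14880 genes, 200 changed by a log2 fold change of 1), edgeR recovered 143 (71.5%) with 3 false calls, limma voom 140 with 4 and DESeq2 127 with 5. Python 3.11.15, pandas 2.3.3, numpy 2.4.6 and matplotlib 3.10.9 were used. No protein table or genome sequence was used.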

Additional observations from a re-analysis of the deposited data

Results flagged for a closer look

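The 2 transfectants differed from each other, in the direct test of EPR against EPRSTOPE, for 7 of 106 members, 6 higher and 1 lower (5.66% and 0.943%, against 6.86% and 6.35% of all genes). The log2 fold changes were 0.73 for *Cox8a*, -0.53 for *Ndufa5*, 1.26 for *mt-Atp6*, 0.86 for *mt-Nd1*, 0.76 for *mt-Nd2*, 0.66 for *mt-Nd4l* and 2.49 for *mt-Tg*. The adjusted p of edgeR's test was 4.4e-05 for *Cox8a* and 0.00082 for *mt-Nd1*, the pair of calls that every alternative kept. Those of *Ndufa5*, *mt-Atp6*, *mt-Nd4l* and *mt-Tg* were each lost in 7 or 8 alternatives. *Cox8a* is on chromosome 19, where 43.4% of all tested genes were called higher in this comparison, with a median of 0.55. The part of that chromosome's shift in the *Cox8a* difference was not tested. The 3 EPR libraries had 23.65 to 27.0 CPM of the transgene and the 3 EPRSTOPE libraries 3.80 to 4.74 CPM, and the part of that difference was not tested.

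Counts also appeared outside the members, on near-identical copies that were higher in EPR than in mock cells. *Gm28661*, the copy of *mt-Co2*, rose by 1.02 on the log2 scale, *Gm28437*, the copy of *mt-Co3*, by 0.65, and *Gm10175*, the copy of *Atp5g2*, by 0.64. *Gm10221*, the copy of *Atp5l*, was at 0 in all 3 mock libraries. Its fitted value of 11.05 depends on the prior count and is no bound. These copies share their whole sequence, or nearly so, with the member, so the counts cannot be assigned to either.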

How the results depend on the processing

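No paired analysis was possible because the library numbers are unique to each library and no number is shared between groups.

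Members called higher in EPR against mock numbered 16, with 10 under counts scaled from TPM, 30 at an adjusted p under 0.05 with any fold change and 6 beyond a log2 fold change of 1, and 14 to 19 when each library was left out in turn. Members called lower there numbered 3, with 7 under library totals only, 16 at the looser p, 0 at the stricter fold, and 2 to 5 on leaving out libraries (5 without EPR library 206). In EPRSTOPE against mock, 6 were higher, with 2 under counts scaled from TPM, 30 at the looser p, 1 at the stricter fold and 4 to 9 on leaving out libraries. The 5 that were lower became 3 under counts scaled from TPM, 9 at the looser p, 0 at the stricter fold and 2 to 5 on leaving out libraries, with 2 without mock library 204. In EPR against EPRSTOPE the 6 higher became 14 with no filter, 2 under counts scaled from TPM, 16 at the looser p, 2 at the stricter fold and 3 to 7 on leaving out libraries, with 3 without EPR library 207. The 1 lower became 0 under library totals only, under counts scaled from TPM, in a fit of only the compared groups and at the stricter fold, 19 at the looser p, and 0 to 2 on leaving out libraries. The share of counts in mitochondrial mRNAs became 0.637% in mock as a share of TPM, and with the copies added 1.06% in mock, 1.80% in EPR and 1.48% in EPRSTOPE; leaving out libraries gave 0.669% to 0.703%, 1.08% to 1.28% and 0.925% to 0.989%. None of the 37 called differences examined changed sign, whereas 9 of the 56 uncalled ones did, those of *mt-Co3* (-0.27 to 0.65) and *mt-Nd2* (-0.21 to 0.13) in EPRSTOPE against mock and of *mt-Co2* (-0.52 to 0.50) in EPR against EPRSTOPE among them. The causes were not tested. Library totals without TMM moved the median of all genes to -0.09, -0.16 and 0.05 and the share of higher calls among all calls to 46.5%, 44.2% and 57.0%, from 54.1%, 55.8% and 51.9%, so that lower calls became the majority in both comparisons with mock. Fold changes near 0.5, as those of *Ndufs3*, *Ndufa5*, *Ndufv1*, *Ndufb8*, *Cox6c* and *mt-Nd5*, are on either side of the limit depending on the setting. At this depth a member under 0.502 CPM cannot be compared.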
